A study of Mus musculus with 39 samples.

Results

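Sik3 mRNA fell to 21.4% of the non-targeting (NT) level when N2a cells received RfxCas13d with a Sik3 crRNA, while the transcripts of the other SIK kinases, their upstream kinase and their substrates moved by at most 0.50 on the log2 scale in either direction. The genes described here are 10 of the salt-inducible kinase (SIK) pathway: the kinases Sik1, Sik2 and Sik3, the upstream kinase Stk11 (LKB1), the CREB-regulated transcription coactivators Crtc1, Crtc2 and Crtc3, the class IIa histone deacetylases Hdac4 and Hdac5, and the transcription factor Creb1. They were listed by symbol, with earlier results of these data known. All 10 were found in both tables of expression values, which listed 25239 genes for wild-type (WT) cells and 25241 for a line that stably expresses tdTomato. All 10 also passed the filter on low values, a mean of at least 1 FPKM (fragments per kilobase of gene length, scaled to the counted total of the library), in both tables.

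N2a is a mouse neuroblastoma line, and RfxCas13d is a ribonuclease that a crRNA guides to a matching RNA. In 30 libraries, WT N2a cells had been transfected with plasmids for RfxCas13d and either NT crRNA (6 libraries) or 1 of 8 crRNAs with 3 libraries each: crRNA 1 or 8 against Sik3, crRNA 1 or 3 against Map2, crRNA 4 or 6 against Mapt, and crRNA 3 or 5 against Rbfox3. In 9 libraries, N2a cells of the tdTomato line had received RfxCas13d with NT crRNA, tdTomato crRNA 4 or tdTomato crRNA 7, again 3 each. RNA was collected 48 h after transfection, and every group, NT included, carried RfxCas13d. By their library names, NT replicates 1, 2 and 6 form a WT set together with 7 crRNAs, while replicates 3, 4 and 5 and the libraries of Rbfox3 crRNA 5 form an N set. The control of a crRNA was NT of its own set, so the 7 comparisons of the WT set share their 3 NT libraries. For the Sik3 crRNAs a further comparison was made with the 15 libraries of the other 5 crRNAs of the WT set, a difference of means without the NT libraries, which enter its fit only through the shared spread and series terms. Its p-values rest on the spread between libraries of a group and leave out differences between crRNAs. Whether replicates were separate cultures is not given in the sources used here, so p-values measure only the spread between these libraries, which may be technical.

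Depth was 10405722 to 16874763 counted reads in the WT libraries, and 2199738 to 4300019 in those of the tdTomato line. Among markers of sympathetic neuroblastoma, Hand2 had a mean of 195 FPKM, Chga of 86.2 FPKM and Phox2a of 67.3 FPKM in WT cells, while Th, the rate-limiting enzyme of catecholamine synthesis, had a mean of 0.690 FPKM. The summed levels of the fibroblast, immune, glial, endothelial and epithelial lists were at most 8.20 FPKM in any WT library. In the tdTomato line the epithelial sum was 13.0 to 19.2 FPKM and the fibroblast sum 6.95 to 11.7 FPKM, with overlapping ranges in its 3 groups, and their part in the results of that line was not tested. In these bulk libraries fewer cells of a type and less RNA per cell cannot be told apart.

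SIK kinases belong to the AMP-activated protein kinase family and are switched on by LKB1, which phosphorylates their activation loop. Active SIKs phosphorylate CRTC proteins and class IIa HDACs, which are then bound by 14-3-3 proteins and held in the cytoplasm. When cAMP rises, protein kinase A inhibits the SIKs, the CRTCs enter the nucleus and act with CREB on its target genes, and class IIa HDACs repress MEF2 factors there. Because this control works by phosphorylation, mRNA levels report the amount of each transcript and not the activity of its protein.

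The study designed its Sik3 crRNAs against a short Sik3 transcript. The spacers and the RNA sites they pair with are shown because the results turn on which transcript they reach. Spacers and sites are in lower case throughout. For both Sik3 crRNAs all 22 bases pair with the site shown.
NT crRNA spacer: tcaccagaagcgtaccatactc
Sik3 crRNA 1 spacer: caagcactgccaggtgccacat
Sik3 crRNA 1 site: atgtggcacctggcagtgcttg
Sik3 crRNA 8 spacer: gtcgctctgtgaatcaggcatc
Sik3 crRNA 8 site: gatgcctgattcacagagcgac

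The NT spacer had no exact match among the mouse transcripts of the GRCm38 annotation (GENCODE M21). Sik3 lies at chr9:46012820-46224194 on the plus strand. The site of crRNA 1 lies at chr9:46202074-46202095 and that of crRNA 8 at chr9:46202652-46202673, with 556 bases between them. Both sites are in exon 13, the last exon of transcript Sik3-203, which is 1 of 7 annotated transcripts of the gene. The crRNA 1 site starts on the last base of the stop codon and runs into the 3′ UTR, and the crRNA 8 site lies within the 3′ UTR. Neither site is in any of the other 6 transcripts.

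The gene length that the deposited values imply for Sik3 was 6287 bases. This is the exon length of the annotated transcript Sik3-204, while Sik3-203 has 2330 bases, of which 1515 are shared with Sik3-204. An equal length does not prove equal exons, but it is the length of a set of exons without either crRNA site. The FPKM values below are therefore levels of the gene as counted, and short and long Sik3 transcripts cannot be told apart in them.

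The other 9 genes held no close copy of either Sik3 site, and their best matches had 7 to 9 mismatches. The closest was in Crtc3 for both crRNAs. These stretches are shown with their mismatches to the Sik3 site in capitals.
Crtc3 stretch closest to the crRNA 1 site: CtTtgAcacctTCTGgtgcttg
Crtc3 stretch closest to the crRNA 8 site: gCCgcctgGttTGcaAagTgac

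Sik3, the targeted kinase, had 7.37, 9.04 and 7.53 FPKM in NT replicates 1, 2 and 6, from 657, 857 and 584 reads. With crRNA 1 it had 2.29, 2.37 and 1.88 FPKM, from 200, 226 and 151 reads. With crRNA 8 it had 1.50, 1.27 and 0.94 FPKM, from 153, 106 and 89 reads. The 3 groups did not overlap, and every crRNA 8 library was below every crRNA 1 library. The mean level was 7.98 ± 0.921 FPKM (SD, n = 3) with NT, 2.18 ± 0.260 with crRNA 1 and 1.23 ± 0.279 with crRNA 8, or 27.3% and 15.5% of NT.

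The log2 difference of Sik3 to NT was −1.66 ± 0.0886 (SE) with crRNA 1 (adjusted p = 1.55e-12, limma) and −2.30 with crRNA 8 (adjusted p = 2.76e-15). An exact 2-sided permutation test of 3 against 3 libraries gave p = 0.1 for each crRNA, the smallest p this design allows. For the mean of both crRNAs the difference was −1.98 ± 0.0768, with a 95% interval of −2.14 to −1.82, and it was −1.91 within the LDK series of library names and −2.12 within the LDL series. All of these are differences of log2(FPKM + 0.5), a scale that understates the change of low genes, and 49.4% of the 11553 genes tested in WT cells changed at an adjusted p under 0.05 in that comparison. With the Sik3 crRNAs the gene still held 89 to 226 reads in each library, and the transcripts these reads came from were not told apart.

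CrRNA 8 left less Sik3 than crRNA 1, a log2 difference of −0.64 ± 0.0886 (adjusted p = 0.000249, 95% interval −0.82 to −0.45). Sik3 was the only gene of the 10 that passed this comparison, in which 2.61% of all genes tested passed. The differences of the other 9 genes lay between −0.21 and 0.15. That of Hdac4 was the most negative, with a 95% interval of −0.41 to −0.01 and an adjusted p of 0.284, so the level with both crRNAs was not shown to be alike.

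In the 24 WT libraries without a Sik3 crRNA, Sik3 lay between 6.30 and 9.38 FPKM, above all 6 libraries with a Sik3 crRNA. Group means ran from 7.30 FPKM with Map2 crRNA 3 to 8.84 FPKM with NT of the N set. Neighbouring groups in that order differed by less than their spread. With the other 6 crRNAs of WT cells Sik3 did not pass the test, with log2 differences of −0.12 to 0.09, although Map2 crRNA 3 passed when all 6 NT libraries were the control (−0.23, adjusted p = 0.0441).

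**Figure D1:**
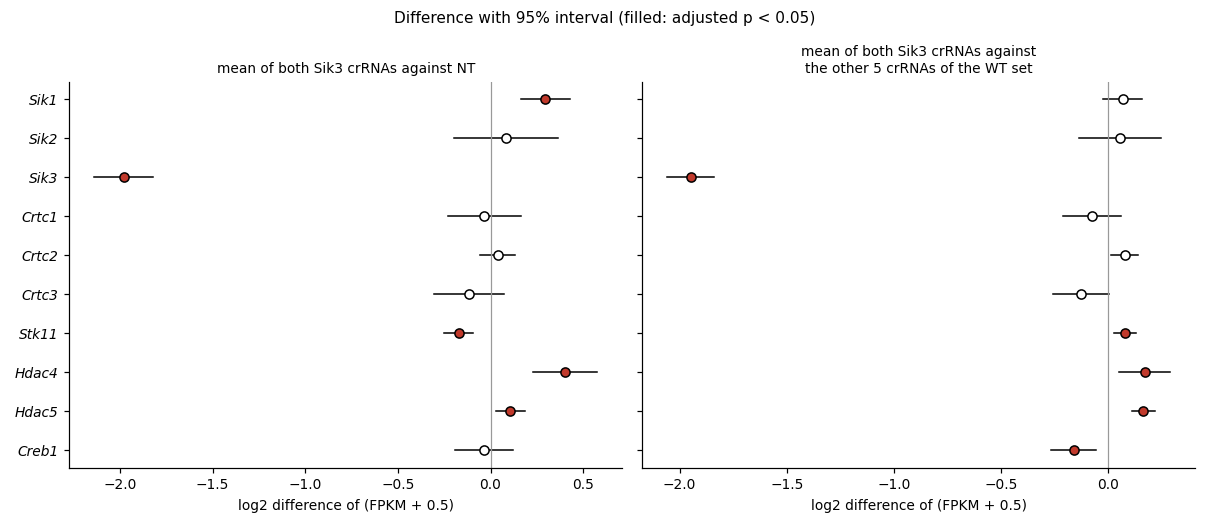
Log2 difference of the 10 genes, on the log2(FPKM + 0.5) scale, for the mean of both Sik3 crRNAs against NT and against the other 5 crRNAs of the WT set; points are estimates, bars 95% intervals and filled points an adjusted p under 0.05. Sik3 stands at −1.98 and −1.95, and the other 9 genes lie between −0.17 and 0.40.

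Sik1, the kinase whose own transcription responds to cAMP, had 8.25, 7.79 and 8.72 FPKM with NT. It had 9.43, 9.65 and 10.44 FPKM with crRNA 1 and 10.27, 10.97 and 10.72 FPKM with crRNA 8. All 6 libraries with a Sik3 crRNA were above all 3 NT libraries. Sik1 rose by 0.30 ± 0.0641 on the log2 scale for the mean of both crRNAs (adjusted p = 0.000531). It rose by 0.24 with crRNA 1 (adjusted p = 0.0109) and by 0.35 with crRNA 8 (adjusted p = 0.000518). The call for crRNA 1 was lost with all 6 NT libraries as the control (adjusted p = 0.054), without NT replicate 2 (0.0514) and without its own replicate 3 (0.053).

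The level of Sik1 with other crRNAs reached the same range. It was 10.46, 11.08 and 10.69 FPKM with Mapt crRNA 6 and 11.93, 10.91 and 10.12 FPKM with Rbfox3 crRNA 3. Against the other 5 crRNAs of the WT set the difference of Sik1 with the Sik3 crRNAs was 0.07 (adjusted p = 0.275), and the groups overlapped.

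Sik2, the third SIK kinase, had 2.05, 2.07 and 1.92 FPKM with NT, 2.35, 2.49 and 2.21 FPKM with crRNA 1, and 2.02, 2.43 and 1.59 FPKM with crRNA 8. The NT values lay within the range of the Sik3 crRNA libraries. The difference was 0.08 with a 95% interval of −0.19 to 0.36 (adjusted p = 0.630). Sik2 shares 1429 exon bases with Ppp2r1b on the opposite strand, and whether the counting used strand is not given in the sources used here, so its level is uncertain.

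The summed FPKM of the 3 SIK transcripts was 18.2 ± 0.62 with NT, 14.4 ± 0.26 with crRNA 1 and 13.9 ± 0.71 with crRNA 8 (SD, n = 3). FPKM is per length of gene, so sums between genes hold only as far as that length fits the transcripts present. For Sik3 the length was 6287 bases while Sik3-203 has 2330, so sums and shares with Sik3 describe FPKM as counted. Sik3 made up 43.7% of that sum with NT, 15.2% with crRNA 1 and 8.86% with crRNA 8. Sik1 made up 45.3%, 68.5% and 76.7%, and Sik2 made up 11.03%, 16.3% and 14.4%. In the other WT groups the mean share of Sik3 was 37.1% to 43.9%. The sum of Sik1 and Sik2 alone was 10.3 ± 0.39 FPKM with NT, 12.2 ± 0.43 with crRNA 1 and 12.7 ± 0.63 with crRNA 8, and it reached 13.0 FPKM with Mapt crRNA 6.

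**Figure D2:**
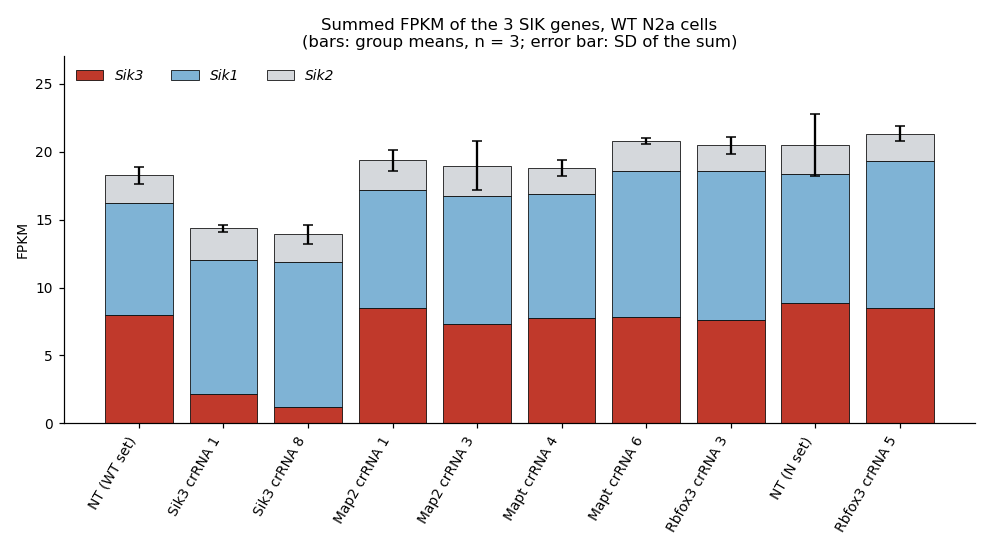
Mean FPKM of Sik3, Sik1 and Sik2, stacked, in each group of WT cells (n = 3 libraries a group); the error bar is the SD of their sum. The Sik3 segment shrinks from 7.98 FPKM with NT to 2.18 with crRNA 1 and 1.23 with crRNA 8, and Sik1 is then the larger part of the sum.

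Stk11 encodes LKB1, the kinase that activates the SIKs. It had 38.8, 38.6 and 37.0 FPKM with NT, 34.5, 33.7 and 36.3 FPKM with crRNA 1, and 33.7, 31.9 and 32.8 FPKM with crRNA 8. All 6 libraries with a Sik3 crRNA were below the 3 NT libraries. Stk11 fell by 0.17 on the log2 scale for the mean of both crRNAs (SE 0.0376, adjusted p = 0.000579). With crRNA 1 alone it fell by 0.13 (adjusted p = 0.0194), a call that was lost in 5 of 17 alternatives, and with crRNA 8 by 0.22 (adjusted p = 0.000328).

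Stk11 was lower than NT with every crRNA of WT cells: it fell with 8 of 8, by 0.10 to 0.40 on the log2 scale. These are not 8 separate results, since 7 share the 3 NT libraries of the WT set. That group had the highest mean Stk11 of the WT groups (38.2 FPKM). The share of all genes that fell with all 8 was not determined. The smallest of the 8 falls, with Map2 crRNA 1, had an adjusted p of 0.0490 and lost its call in 9 alternatives. With Rbfox3 crRNA 3 Stk11 had 30.1, 26.8 and 29.3 FPKM, among them the lowest value of the WT table. With the Sik3 crRNAs Stk11 was higher than with the other 5 crRNAs, by 0.08 ± 0.0257 (adjusted p = 0.0258). Stk11 shares 232 exon bases with Cbarp on the opposite strand.

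The substrates were read at the mRNA level only. Hdac4, a class IIa histone deacetylase, had 3.06, 3.70 and 2.82 FPKM with NT, 4.52, 4.40 and 5.26 FPKM with crRNA 1, and 4.25, 3.63 and 4.18 FPKM with crRNA 8. The crRNA 1 libraries were all above NT, and the lowest crRNA 8 library lay below the highest NT library. Hdac4 rose by 0.40 ± 0.0842 for the mean of both crRNAs (adjusted p = 0.000385). The rise was 0.50 with crRNA 1 (adjusted p = 0.000194) and 0.30 with crRNA 8 (adjusted p = 0.0166), and the crRNA 8 call was lost in 5 of 17 alternatives, among them without NT replicate 6 (0.21, adjusted p = 0.122).

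Within the series of library names the rise of Hdac4 was 0.28 in LDK, with 4 against 2 libraries (adjusted p = 0.0509 when LDK was fitted alone), and 0.64 in LDL. Against the other 5 crRNAs of the WT set, where its level was 3.20 to 4.52 FPKM with a median of 3.93, Hdac4 was higher with the Sik3 crRNAs by 0.17 ± 0.0575 (adjusted p = 0.0322). Hdac4 shares 3536 exon bases with Gm26720 on the opposite strand, and reads of both cannot be told apart without strand.

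Hdac5, another class IIa deacetylase and the most abundant of the 10 genes, had 55.95, 54.28 and 55.32 FPKM with NT. It had 59.95, 59.21 and 65.28 FPKM with crRNA 1 and 60.94, 57.09 and 54.80 FPKM with crRNA 8. The crRNA 1 libraries were above NT, while the crRNA 8 libraries overlapped it. Hdac5 rose by 0.15 ± 0.0435 with crRNA 1 (adjusted p = 0.00625), and the difference with crRNA 8 was 0.06 (adjusted p = 0.277). These 2 differences were not shown to be unequal (−0.09, adjusted p = 0.285). For the mean of both crRNAs Hdac5 rose by 0.11 ± 0.0377 (adjusted p = 0.0220), a call that was lost without NT replicate 2 (0.09, adjusted p = 0.101), without crRNA 1 replicate 3 (0.08, adjusted p = 0.0633) and without crRNA 8 replicate 1 (0.09, adjusted p = 0.0599).

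Hdac5 had the smallest adjusted p after Sik3 in the comparison with the other crRNAs. The 15 libraries of the other 5 crRNAs had 47.6 to 62.4 FPKM with a median of 51.7, and Hdac5 was higher with the Sik3 crRNAs by 0.16 ± 0.0258 (adjusted p = 6.23e-05). The difference was 0.15 within LDK and 0.20 within LDL. The call was kept in 32 of 32 alternatives, none of which left out a whole crRNA. The 2 sets of libraries still overlapped. Group means of the other 5 crRNAs ran from 48.9 FPKM with Mapt crRNA 6 to 60.1 with Map2 crRNA 1, above Sik3 crRNA 8 (57.6).

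The summed FPKM of Hdac4 and Hdac5 was 58.4 with NT, 66.2 with crRNA 1 and 61.6 with crRNA 8. Hdac4 made up 5.47%, 7.13% and 6.53% of it, so the sum mostly followed Hdac5.

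The 3 CRTC coactivators, which carry the signal to CREB, did not pass the test with either Sik3 crRNA. Crtc2 had 24.0, 26.8 and 24.1 FPKM with NT, 26.0, 25.4 and 24.3 FPKM with crRNA 1, and 26.7, 25.4 and 25.9 FPKM with crRNA 8. Its groups overlapped, and the difference for the mean of both crRNAs was 0.04 with a 95% interval of −0.06 to 0.13 (adjusted p = 0.4996). Crtc1 had 2.70, 3.17 and 3.10 FPKM with NT, 3.35, 2.93 and 3.11 with crRNA 1, and 3.08, 2.76 and 2.28 with crRNA 8. The crRNA 8 values reached lower than NT, and the difference for both crRNAs was −0.03 with an interval of −0.23 to 0.16 (adjusted p = 0.795).

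Crtc3, the least abundant of the 10 genes, had 1.48, 1.69 and 1.78 FPKM with NT, 1.27, 1.37 and 1.52 with crRNA 1, and 1.41, 1.57 and 1.78 with crRNA 8. These ranges overlapped, and the difference was −0.12 with an interval of −0.31 to 0.08 (adjusted p = 0.312). The summed FPKM of the CRTC genes was 29.6 with NT, 29.8 with crRNA 1 and 30.3 with crRNA 8, of which Crtc2 made up 84.3%, 84.8% and 85.8%.

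Creb1, the factor that the CRTCs coactivate, had 5.38, 6.26 and 6.42 FPKM with NT, 6.27, 6.31 and 5.93 with crRNA 1, and 5.42, 5.95 and 5.29 with crRNA 8. The values overlapped NT, with a difference of −0.03 and an interval of −0.19 to 0.12 (adjusted p = 0.726). The 15 libraries of the other 5 crRNAs had 5.78 to 7.59 FPKM with a median of 6.64. Against them Creb1 was lower with the Sik3 crRNAs, a log2 difference of −0.16 ± 0.0512 (adjusted p = 0.0241), with overlapping libraries.

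Counted over the 10 genes, 3 rose (Sik1, Hdac4 and Hdac5) and 2 fell (Sik3 and Stk11) for the mean of both Sik3 crRNAs against NT. The background was 25.8% of all genes tested that rose and 23.6% that fell, 49.4% in all, so 5 of 10 is a share near the background. With crRNA 1 alone the same 5 genes passed, where 44.7% of all genes did. With crRNA 8 alone 4 passed, without Hdac5, where 42.9% of all genes did. All libraries of both Sik3 crRNAs lay above all NT libraries for 1 of the 10 genes (Sik1), as they did for 19.3% of all genes, and below them for 2 (Sik3 and Stk11), as for 18.3%.

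Against the other 5 crRNAs, 3 of the 10 genes were higher (Stk11, Hdac4 and Hdac5) and 2 lower (Sik3 and Creb1), where 8.64% of all genes tested were higher and 15.6% lower, or 24.3% in all. Without Sik3 this count was 4, and it depended on single libraries: it was 2 without crRNA 1 replicate 3, 1 without crRNA 8 replicate 1 and 1 without crRNA 8 replicate 3. Hdac4 lost its call in 7 of 32 alternatives, Stk11 in 5 and Creb1 in 2. Sik3 was the only gene of the 10 whose Sik3 crRNA libraries did not overlap the other crRNAs at all, which was the case in that direction for 17 of all genes (0.147%).

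**Figure D3:**
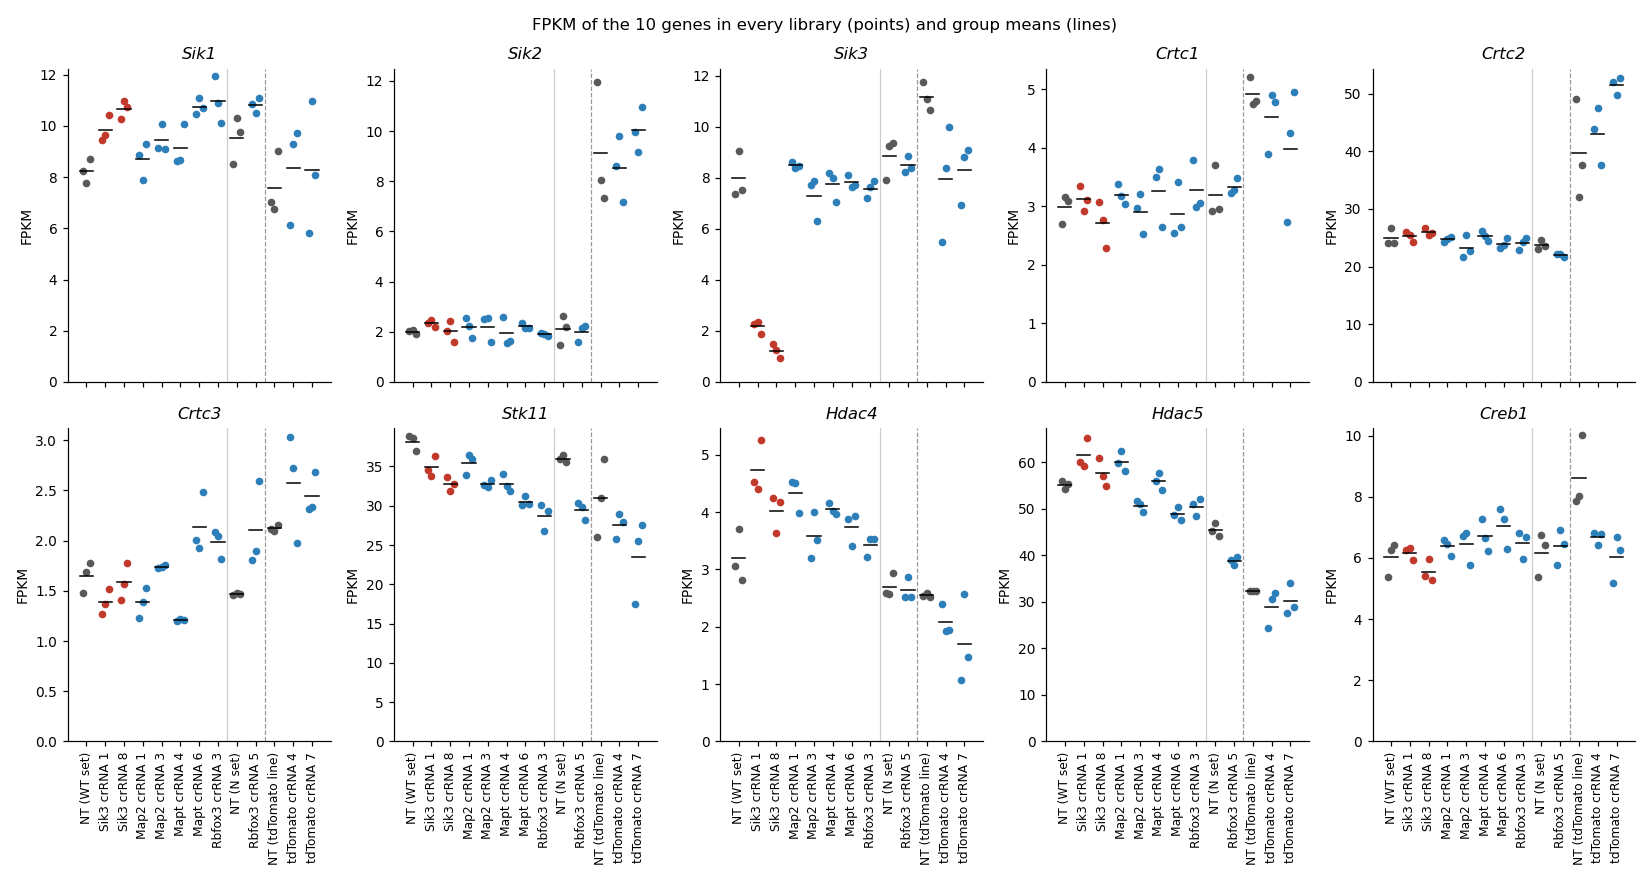
FPKM of each of the 10 genes in every library, by group; each point is a library, and the dashed line separates WT cells from the tdTomato line, whose values come from another table. Only the Sik3 panel shows the Sik3 crRNA libraries (0.94 to 2.37 FPKM) apart from all other WT libraries (6.30 to 9.38 FPKM).

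The levels of the 10 genes in the WT table spanned a wide range, ordered here by the median over 30 libraries. Hdac5 was highest with a median of 53.0 FPKM, followed by Stk11 with 33.0 and Crtc2 with 24.4. Sik1 had 10.07, Sik3 7.80 and Creb1 6.36 FPKM. Hdac4 with 3.67, Crtc1 with 3.09, Sik2 with 2.15 and Crtc3 with 1.63 FPKM formed the low end. Neighbours in that order overlapped over the 30 libraries, except Stk11 and Crtc2, Crtc2 and Sik1, and Creb1 and Hdac4.

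Crtc3 moved in both directions over the other crRNAs. It had 1.20, 1.22 and 1.21 FPKM with Mapt crRNA 4 and 2.00, 1.92 and 2.48 FPKM with Mapt crRNA 6, so the libraries of these crRNAs against the same target did not overlap. It fell with Mapt crRNA 4 (−0.32, adjusted p = 0.0185) and rose with Mapt crRNA 6 (0.29, adjusted p = 0.0344), calls that were lost in 5 and 6 alternatives. With Rbfox3 crRNA 5 it had 1.81, 1.90 and 2.60 FPKM against 1.46, 1.48 and 1.47 with NT of the N set, a rise of 0.39 (adjusted p = 0.00862) that was lost without replicate 3 (0.26, adjusted p = 0.0857).

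Hdac5 also moved both ways. It rose with Map2 crRNA 1 (0.12, adjusted p = 0.0233) and fell with Map2 crRNA 3 (−0.12, adjusted p = 0.0324), Mapt crRNA 6 (−0.17, adjusted p = 0.00300) and Rbfox3 crRNA 3 (−0.13, adjusted p = 0.0253). With Rbfox3 crRNA 5 it had 38.97, 37.92 and 39.56 FPKM against 45.17, 46.98 and 44.11 with NT of the N set, without overlap (−0.22, adjusted p = 0.000489). The 3 falls of the WT set were all lost when the 6 NT libraries were pooled.

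The NT libraries of the 2 sets differed from each other, although they carried the same crRNA. Of the 10 genes 2 passed, where 46.4% of all genes tested did. Hdac5 was lower in the N set (−0.26, adjusted p = 5.56e-05), and Sik3 was higher, with 7.91, 9.24 and 9.38 FPKM (0.24, adjusted p = 0.0408), a call lost in 7 alternatives. The set and any difference in day or culture cannot be told apart.

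Over the 8 crRNAs of WT cells, Sik1 rose with 4 and was above NT in the fit with all 8, and Hdac4 rose with 4. NT of the WT set, which 7 of these comparisons share, had the lowest mean Sik1 of the WT groups (8.25 FPKM). Besides the Sik3 crRNAs, Sik1 rose with Mapt crRNA 6 (0.36, adjusted p = 0.000508) and Rbfox3 crRNA 3 (0.39, adjusted p = 0.000271), and Hdac4 with Map2 crRNA 1 (0.40, adjusted p = 0.00163) and Mapt crRNA 4 (0.31, adjusted p = 0.0145). Sik2, Crtc1, Crtc2 and Creb1 passed in limma with 0 of 8, and Sik3 only with its own crRNAs. At an unadjusted p under 0.05 Sik2, Crtc1 and Crtc2 were still at 0 of 8, and Creb1 passed with 1 (Mapt crRNA 6), which voom also called. The number of the 10 genes that passed was 3 with Map2 crRNA 1 (49.7% of all genes), 2 with Map2 crRNA 3 (33.3%), 3 with Mapt crRNA 4 (38.6%), 4 with Mapt crRNA 6 (36.8%), 3 with Rbfox3 crRNA 3 (32.5%) and 3 with Rbfox3 crRNA 5 (25.7%). None of these 6 shares exceeded its background by as much as 1 gene of the 10.

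**Figure D4:**
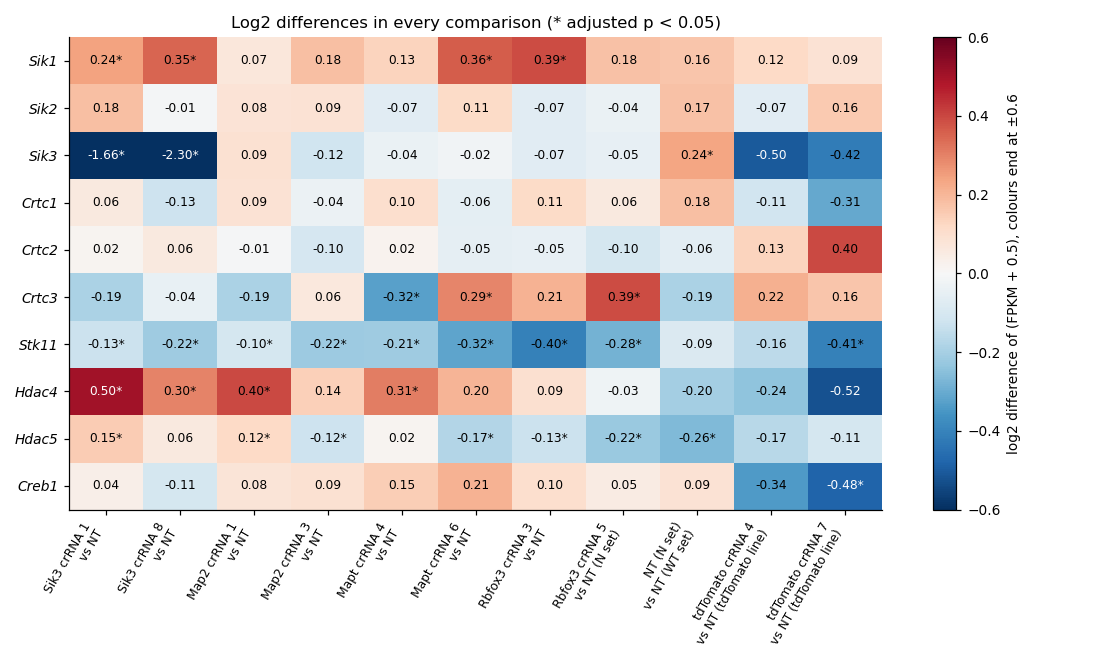
Log2 difference of each of the 10 genes, on the log2(FPKM + 0.5) scale, in 11 comparisons, as a colour scale; a star marks an adjusted p under 0.05. The Sik3 crRNAs stand out in the Sik3 row with −1.66 and −2.30, and the Stk11 row is below 0 with all 8 crRNAs of WT cells.

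In the tdTomato line the levels were set by another table and are given side by side, without a test across tables. Sik2 had 7.19 to 11.97 FPKM there, against 1.46 to 2.63 FPKM in WT cells. With NT the SIK sum was 27.9 FPKM, of which Sik1 made up 27.4%, Sik2 32.4% and Sik3 40.2%. The CRTC sum was 46.7 FPKM, with Crtc2 at 84.6%, and the sum of Hdac4 and Hdac5 was 34.9 FPKM.

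With tdTomato crRNA 4 none of the 10 genes passed the adjusted test in limma, where 10.7% of all genes did. At an unadjusted p under 0.05 there were 2, and the share of all genes was not determined. Limma with voom weights on the recovered reads called 2 (Sik3 and Creb1), where it called 20.4% of all genes, so this count is near its background. Sik3 had 11.75, 11.10 and 10.68 FPKM with NT, 5.50, 8.37 and 9.98 with crRNA 4, and 6.94, 8.83 and 9.10 with crRNA 7. All libraries with a tdTomato crRNA were below the NT libraries, although these crRNAs do not target Sik3. Such a fall without overlap was seen for 4 of the 10 genes with crRNA 4 and for 2 with crRNA 7, Sik3 included. Above all NT libraries lay 0 genes with crRNA 4 and 2 with crRNA 7. The shares of all genes were not determined, so the fall is not shown to be particular to Sik3. The log2 difference of Sik3 was −0.50 with crRNA 4 (adjusted p = 0.0851) and −0.42 with crRNA 7 (adjusted p = 0.108).

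With tdTomato crRNA 7, Stk11 and Creb1 fell, 2 of 10 genes where 18% of all genes changed. At an unadjusted p under 0.05 there were 4, and the share of all genes was not determined. Voom called 4, where it called 26.3% of all genes, with Sik3 (−0.39, adjusted p = 0.0241) and Crtc2 (0.42, adjusted p = 0.00170) added. Stk11 had 26.0, 31.0 and 36.0 FPKM with NT and 17.5, 25.5 and 27.5 with crRNA 7, with overlapping groups (−0.41, adjusted p = 0.0364). Creb1 had 7.87, 8.01 and 10.01 FPKM with NT and 5.18, 6.70 and 6.25 with crRNA 7, without overlap (−0.48, adjusted p = 0.0442). Both calls were lost in 11 of 16 alternatives. The median of all genes was −0.13 in this comparison, and after rescaling each library to a common median the differences were −0.29 (adjusted p = 0.0792) for Stk11 and −0.37 (adjusted p = 0.0917) for Creb1. Crtc2 went the other way, with 52.03, 49.75 and 52.79 FPKM against 49.08, 32.14 and 37.70 with NT, a difference of 0.40 (adjusted p = 0.0605) that became 0.51 after rescaling (adjusted p = 0.0227).

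The other genes of the pathway were taken from 8 lists of 78 genes, of which 63 were tested in WT cells. For the mean of both Sik3 crRNAs against NT, 21 rose and 10 fell (49.2%, against 49.4% of all genes), with a median log2 difference of 0.03 against 0.02 over all genes. Against the other 5 crRNAs 9 were higher and 11 lower (31.7%, against 24.3%), with a median of −0.01 against −0.02.

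Among partners of LKB1, 1 of 4 rose (25%, against 49.4% of all genes), the pseudokinase Strada (0.15, adjusted p = 0.0280). Against the other 5 crRNAs 0 of 4 passed in limma (24.3% of all genes), where 2 had an unadjusted p under 0.05 and voom called 0. Of 8 related kinases of the AMPK family that were tested, 2 rose against NT (25%, against 49.4% of all genes). They were Prkaa1, which encodes a catalytic subunit of AMPK (0.14, adjusted p = 0.00118), and Snrk (0.21, adjusted p = 0.0417). The Snrk call was lost in 10 of 20 alternatives, and with all 6 NT libraries its difference was −0.03. In the comparison with the other 5 crRNAs 3 kinases were lower (37.5%, against 24.3% of all genes), among them Snrk (−0.20, adjusted p = 0.0132) and Nuak1 (−0.18, adjusted p = 0.00111).

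Of 10 genes of protein kinase A and cAMP, 4 rose and 2 fell against NT (60%, against 49.4% of all genes). Prkar2b, a regulatory subunit of protein kinase A, rose by 0.55 (adjusted p = 2.14e-07), with a difference of 0.03 to the other 5 crRNAs (adjusted p = 0.628). Pde4d, a phosphodiesterase that breaks down cAMP, had 2.12 ± 0.131 FPKM with NT, 3.27 ± 0.146 with crRNA 1 and 3.35 ± 0.039 with crRNA 8. It rose by 0.54 against NT (adjusted p = 4.29e-06) and by 0.24 against the other 5 crRNAs (adjusted p = 0.00177). Pde4b, a related phosphodiesterase, fell by 0.38 on the log2 scale (adjusted p = 0.00214) and by 0.19 against the other 5 crRNAs (adjusted p = 0.0389), where the call was lost in 13 of 31 alternatives.

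Of 6 genes for 14-3-3 proteins, which hold phosphorylated CRTCs and HDACs in the cytoplasm, 2 rose and 1 fell (50%, against 49.4% of all genes). Ywhah rose by 0.31 (adjusted p = 7.97e-07) and Ywhag by 0.07 (adjusted p = 0.0299), while Ywhab fell by 0.06 on the log2 scale (adjusted p = 0.0487). The Ywhag and Ywhab calls were lost in 8 and 14 of 20 alternatives. Among the 6 genes, 1 passed against the other 5 crRNAs (16.7%, against 24.3% of all genes). This was Ywhab (−0.05, adjusted p = 0.0338), a call lost in 12 of 32 alternatives.

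Of 7 genes for other class IIa HDACs, their corepressors and MEF2 factors, 2 rose and 0 fell against NT (28.6%, against 49.4% of all genes). Mef2d, a transcription factor that class IIa HDACs repress, had 25.9 ± 2.66 FPKM with NT, 34.7 ± 0.657 with crRNA 1 and 34.3 ± 1.21 with crRNA 8. It rose by 0.41 (adjusted p = 2.56e-06) and by 0.20 against the other 5 crRNAs (adjusted p = 0.000717). The latter is a difference of averages. Group means of Mef2d with the other 5 crRNAs ran from 27.6 FPKM with Rbfox3 crRNA 3 to 33.8 with Map2 crRNA 1. The highest library of Map2 crRNA 1 had 36.4 FPKM, above every Sik3 crRNA library. Hdac7 rose by 0.33 (adjusted p = 0.000134) but did not pass against the other 5 crRNAs (0.07, adjusted p = 0.280), and Hdac9 was lower than with those (−0.25, adjusted p = 0.00674).

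In the list of CREB relatives and coactivators 0 of 6 rose and 3 fell (50%, against 49.4% of all genes), among them Crebl2 (−0.38, adjusted p = 0.0121) and Creb3 (−0.21, adjusted p = 0.00515). The median of the list was −0.22 against NT and −0.07 against the other 5 crRNAs, where 0 passed in limma, 0 had an unadjusted p under 0.05 and voom called 0. Of 6 subunits of the phosphatases calcineurin and PP2A, which can dephosphorylate CRTCs, 4 rose and 1 fell (83.3%, against 49.4% of all genes). Ppp3cc rose by 0.48 (adjusted p = 0.000565) and Ppp2ca by 0.41 (adjusted p = 1.11e-11), and neither passed against the other 5 crRNAs. Ppp3r1 fell by 0.16 on the log2 scale (adjusted p = 0.000703) and by 0.11 against the other 5 crRNAs (adjusted p = 0.00221).

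Of 17 CREB target genes that were tested, 6 rose and 3 fell against NT (52.9%, against 49.4% of all genes), with a median of −0.02. Against the other 5 crRNAs 5 were higher and 4 lower (52.9%, against 24.3% of all genes), with a median of −0.05. Vgf, a secreted neuronal peptide precursor, had 617 ± 6.27 FPKM with NT, 805 ± 53.1 with crRNA 1 and 875 ± 13.6 with crRNA 8. These ranges did not overlap NT, and Vgf rose by 0.44 (adjusted p = 1.44e-10) and by 0.27 against the other 5 crRNAs (adjusted p = 8.62e-09). Nr4a1, a nuclear receptor induced early after stimulation, had 23.0 ± 1.33, 27.7 ± 1.66 and 27.7 ± 2.44 FPKM. It rose by 0.26 (adjusted p = 0.00109) and by 0.34 against the other 5 crRNAs (adjusted p = 3.11e-06).

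The early transcription factor genes of this list did not move together. Egr1 had 77.5 ± 2.15 FPKM with NT, 106 ± 5.47 with crRNA 1 and 112 ± 3.86 with crRNA 8, a rise of 0.49 (adjusted p = 5.47e-11) and of 0.19 against the other 5 crRNAs (adjusted p = 2.35e-06). The latter is a difference of averages. Group means of the other 5 crRNAs ran from 78.2 FPKM with Map2 crRNA 3 to 117 with Map2 crRNA 1, above both Sik3 crRNAs. Fosb had 8.67 ± 0.294, 5.57 ± 0.883 and 4.81 ± 0.284 FPKM. It fell by 0.70 on the log2 scale against NT (adjusted p = 1.53e-08). For the mean of both Sik3 crRNAs it was higher than with the other 5 crRNAs by 0.20 (adjusted p = 0.00339), so the direction of this mean depended on the control. Group means of the other 5 crRNAs ran from 3.63 FPKM with Map2 crRNA 3 to 5.27 with Map2 crRNA 1, and Sik3 crRNA 8 lay within that range.

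**Figure D5:**
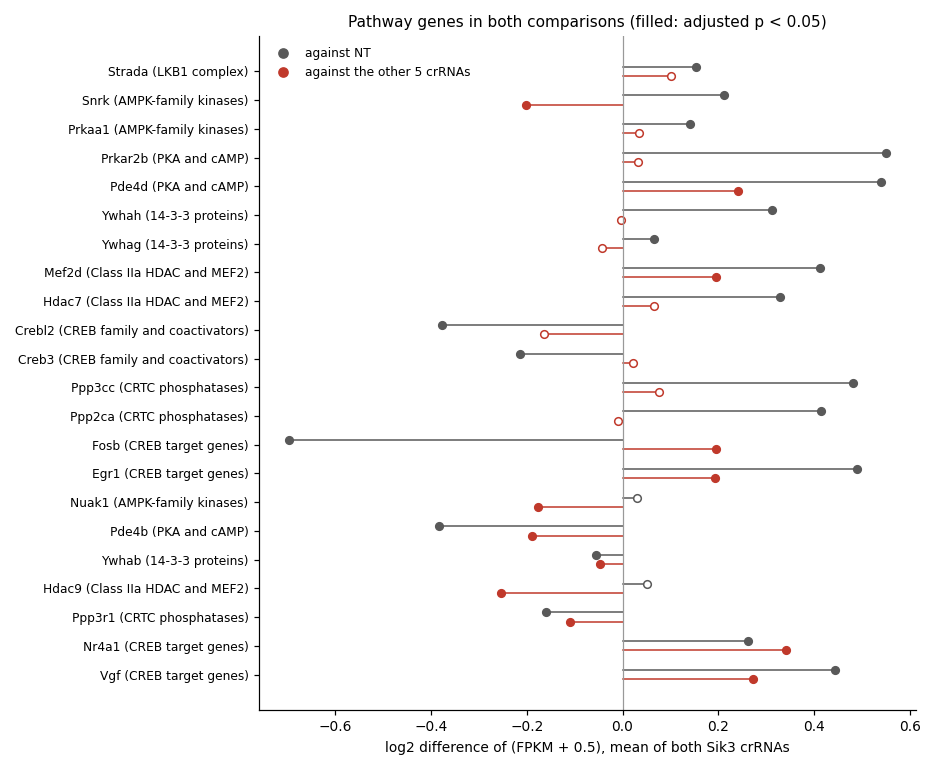
Log2 difference of 22 other genes of the pathway, on the log2(FPKM + 0.5) scale, for the mean of both Sik3 crRNAs against NT and against the other 5 crRNAs; filled points passed at an adjusted p under 0.05. Vgf, Nr4a1, Egr1, Mef2d and Pde4d lie above 0 and passed in both comparisons, and Fosb lies at −0.70 against NT and at 0.20 against the other 5 crRNAs.

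The genes whose pattern over the 30 WT libraries was most like that of Sik3 were Tmem150c (Pearson r = 0.826), Lrrc20 (0.811), Lix1 (0.771), Cse1l (0.765) and Nkain1 (0.760). Without the 6 Sik3 crRNA libraries their correlations over 24 libraries were 0.137, −0.0461, 0.266, 0.0409 and −0.288. The likeness over all libraries thus rested on the 6 libraries with a Sik3 crRNA, and these points share cell line, set and library series, so it is given as a description.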

How the data were processed

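A VAHTS mRNA-seq v2 kit was used, with paired-end reads. Per the labels, the authors trimmed reads (Trim Galore), aligned them to mm10 (Subread), counted them per gene (featureCounts) and deposited FPKM values, which are counts divided by gene length and by the counted total. Tool versions, gene annotation and strand setting were not given in the sources used here. The study's DESeq2 results were not used here. Reads were recovered from the steps between low FPKM values, whole within 0.02 reads, for 25238 of 25239 genes in WT cells and 25241 of 25241 in the tdTomato line. Implied gene lengths were whole within 0.05 bases for 99.95% of 8674 genes.

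Each table was fitted separately over all its libraries by limma 3.58.1 in R 4.3.3 on log2(FPKM + 0.5), with variances that follow the mean, the library series (LDK, LDL or LDM in the library names) as covariate, 2-sided tests and Benjamini-Hochberg adjustment over all genes at or above a mean of 1 FPKM (11553 in WT cells, 11852 in the tdTomato line). Rose and fell mean an adjusted p under 0.05. Groups came from the labels and library names, and no pair of libraries was identical. The 10 genes were named in every comparison, and from each list the 2 largest changes that passed in each of the 2 comparisons of both Sik3 crRNAs. The genes and lists were chosen with earlier results of these data known. Alternatives were pseudocounts of 0.1 and 1, filters, no series term, rescaling, all 6 NT libraries, a replicate block, the LDK series alone, no variance trend, each library left out and, chosen after seeing the data, limma voom on the recovered reads. The fit was also run on simulated reads with known changes in a small part of the genes. These reads held no series differences, so the run sets no error rate for these data. The Icer entry of the CREB target list was not analysed here. A marker of the neuroblastoma list is not reported here.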

Additional observations from a re-analysis of the deposited data

Results flagged for a closer look

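Sik3 differed between the 2 crRNAs that target it. Compared directly, crRNA 8 gave a lower level than crRNA 1, a log2 difference of −0.64 (SE 0.0886, adjusted p = 0.000249 in limma). All 3 crRNA 8 libraries (0.94 to 1.50 FPKM) lay below all 3 crRNA 1 libraries (1.88 to 2.37 FPKM). Groups of 3 libraries were too small for a test of single outlying libraries.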

How the results depend on the processing

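The difference of Sik3 to NT for the mean of both crRNAs passed in all 20 alternatives, from −2.28 (voom on recovered reads) to −1.75 (pseudocount of 1), and from −2.06 to −1.91 with 1 library left out. The number of the other 9 genes that passed against NT was 4, and 3 to 4 in every alternative and with 1 library left out. Against the other 5 crRNAs this number was 4, and it was 2 with all 6 NT libraries pooled, 2 in the LDK series alone and 1 to 5 with 1 library left out. Pooling the NT libraries also lowered the share of all genes that passed against the other 5 crRNAs from 24.3% to 11.9%, and the cause was not tested. Without a filter on low values, when 20518 genes were tested, this share was 12.1%, and against NT it was 29.2% in place of 49.4%. Snrk reversed against NT with all 6 NT libraries (−0.0263, adjusted p = 0.840), and the cause was not tested. A change of sign of a difference that had not passed was not counted as a reversal. The alternatives for the genes of the lists were chosen after seeing the data. The LDL series alone gave values without a test.

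Groups shared numbers in their library names, and the labels do not say what a number marks. The LDL libraries of the WT set carry no number and were counted as same-numbered with each other. Of 9 such pairs of NT and both Sik3 groups, 4 had a correlation of deviations over 0.1 (median 0.0877). Among 18 other pairs 0 did (median −0.0678). In 8 of 9 cases a library correlated best with its counterpart. Of the 4, only number 2 of NT and of Sik3 crRNA 1 was a numbered pair (0.112). The others (0.184, 0.187 and 0.127) joined LDL libraries, so pairing and library series cannot be told apart in them. Since not every pair was over 0.1, the libraries were not treated as paired. With the replicate block the Sik3 difference was −1.98 (adjusted p = 1.55e-13), the other genes that passed were 4 against NT and 4 against the other 5 crRNAs, and of 130 values of the 10 genes 3 lost and 1 gained a call. Over 1020 values with 1 library left out, 62 lost and 10 gained a call and 0 reversed. The lower depth of the tdTomato line limits its comparisons.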
